A study of Mus musculus with 4 samples.

Results

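The distal end of a mouse autosome carried more CTCF peaks per Mb than the rest of that autosome on 14 of 19 chromosomes. The size of the difference varied so much between chromosomes that its mean did not pass the test. The regions described here are the CTCF peaks whose summit lies within 5 Mb of the last peak of chromosomes 1 to 19. They number 2985 of the 51871 peaks in the list, or 5.94% of the 50267 autosomal peaks, on 3.96% of the autosomal length counted. They were chosen by position alone. The only measured quantity in that choice is the end of the last peak of each chromosome, which fixes the window and is itself a member.

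The study profiled CTCF by chromatin immunoprecipitation and sequencing (ChIP-seq) in whole testes of F1 (B6xCAST) mice, with 2 immunoprecipitated samples and 2 inputs. No treatment, age or mutation is given in the labels, and every sample is of the same cross. What was analysed is 1 peak list described as merged, with no value per sample, so no spread between animals stands behind any value and the read depth is unknown. The testis was not sorted, so meiotic, postmeiotic and somatic cells contribute to each peak in unknown shares.

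CTCF is a zinc-finger protein that binds DNA directly and stops the extrusion of chromatin loops by cohesin, which places it at loop anchors and domain boundaries. Mouse autosomes are telocentric: the centromere sits beside one telomere, and the other telomere, called distal here, closes the long arm. In meiotic prophase the telomeres attach to the nuclear envelope and lead the movements by which homologous chromosomes find each other, and in male mice crossovers are frequent near the distal telomeres. CTCF sites are often found close to genes, so peak density is read beside gene density below.

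Sequence was at hand for promoters only, as RefSeq windows of the GRCm38.p6 build, whose chromosome coordinates are those of mm10. A summit fell inside 240 such windows near the distal ends, belonging to 223 protein-coding genes. The 250 bases before the transcription start are shown 5′ to 3′ for the 3 of them with the highest fold enrichment at the summit (the authors' ratio of signal over background; whether the input libraries served as that background is not given in the sources used here). They belong to Osbpl5, which encodes an oxysterol-binding protein relative, Tfcp2, a transcription factor gene, and Emx2, a homeobox gene.
Osbpl5, chr7:143740361-143740610, minus strand: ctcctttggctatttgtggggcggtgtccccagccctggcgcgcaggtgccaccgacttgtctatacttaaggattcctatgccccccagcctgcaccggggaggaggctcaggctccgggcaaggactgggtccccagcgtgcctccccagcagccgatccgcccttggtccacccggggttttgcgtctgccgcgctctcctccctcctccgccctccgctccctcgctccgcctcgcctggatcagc
Tfcp2, chr15:100552009-100552258, minus strand: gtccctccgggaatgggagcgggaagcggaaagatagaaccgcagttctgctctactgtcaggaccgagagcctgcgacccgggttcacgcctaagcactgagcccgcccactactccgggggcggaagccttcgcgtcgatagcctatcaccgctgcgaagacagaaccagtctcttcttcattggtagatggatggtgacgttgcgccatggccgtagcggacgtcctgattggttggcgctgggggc
Emx2, chr19:59458440-59458689, plus strand: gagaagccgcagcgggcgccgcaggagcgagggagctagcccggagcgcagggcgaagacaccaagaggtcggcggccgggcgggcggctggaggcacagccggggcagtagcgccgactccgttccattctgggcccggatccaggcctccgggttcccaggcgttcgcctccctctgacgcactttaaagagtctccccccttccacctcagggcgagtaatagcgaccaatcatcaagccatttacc

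The fold was 15.9 at Osbpl5, with the summit at base 129 of the sequence above. It was 15.6 at Tfcp2, with the summit at base 247, and 15.5 at Emx2, with the summit at base 111. In the bases shown, none of these 3 held the CTCF core consensus or its 9-letter short form CCANNAGGG, on either strand. A second group of 3 is shown because it does hold the core consensus. They are the distal promoters of highest fold with it, chosen after the matches were seen, and capitals mark the consensus. Ttc34 encodes a tetratricopeptide repeat protein, Pcp4 a calmodulin-binding peptide and Nabp2 a single-stranded DNA-binding protein.
Ttc34, chr4:154837166-154837415, plus strand: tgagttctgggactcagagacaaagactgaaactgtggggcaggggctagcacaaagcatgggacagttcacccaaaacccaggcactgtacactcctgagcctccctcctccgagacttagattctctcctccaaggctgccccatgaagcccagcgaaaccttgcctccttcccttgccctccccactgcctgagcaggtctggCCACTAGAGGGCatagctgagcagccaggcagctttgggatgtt
Pcp4, chr16:96467356-96467605, plus strand: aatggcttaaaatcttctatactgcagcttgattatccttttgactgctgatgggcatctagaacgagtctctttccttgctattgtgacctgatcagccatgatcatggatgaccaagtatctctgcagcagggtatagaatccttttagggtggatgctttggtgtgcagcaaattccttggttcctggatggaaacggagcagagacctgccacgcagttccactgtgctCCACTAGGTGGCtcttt
Nabp2, chr10:128409851-128410100, minus strand: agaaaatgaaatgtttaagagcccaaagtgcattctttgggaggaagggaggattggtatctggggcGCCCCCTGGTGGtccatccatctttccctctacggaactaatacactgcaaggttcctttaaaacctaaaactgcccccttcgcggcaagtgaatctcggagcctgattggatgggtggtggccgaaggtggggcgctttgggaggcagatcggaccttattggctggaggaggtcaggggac

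At Ttc34 the fold was 9.18 and the match began at base 207, with the summit at base 201. At Pcp4 the fold was 7.89, and the match began at base 234 with the summit at base 238. At Nabp2, where the match is on the opposite strand, the fold was 7.03, the match began at base 68 and the summit lay at base 101. Among the 240 distal promoter windows with a summit, 9 (3.75%) held the core consensus in their 300 bases, against 0 of the 866 distal windows without a summit. The corresponding shares in the rest of the autosomes were 2.64% of 3409 windows with a summit and 0.109% of 15570 without one, and 0.578% of all 20085 windows held it. The short form, which can overlap the core, was found in 7.92% of distal windows with a summit and in 6.16% of all windows. These are matches of letters, described without a test.

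Summit density near the distal ends ran from 3.20 per Mb on chromosome 18 to 66.2 per Mb on chromosome 5, with a median of 30.6 over the 19 chromosomes. In the rest of the same chromosomes it ran from 15.5 to 30.8 per Mb, with a median of 19.02. The distal windows thus covered a far wider range than whole chromosomes did, although a value over 5 Mb also varies more than one averaged over a whole chromosome. The 2 highest ratios to the rest were 3.14 on chromosome 15 (59.4 against 18.9 per Mb) and 2.63 on chromosome 5 (66.2 against 25.2 per Mb). The 2 lowest were 0.171 on chromosome 17 (4.60 against 26.9 per Mb) and 0.183 on chromosome 18 (3.20 against 17.5 per Mb). Chromosome 3 also fell well under its own rest, at 7 against 15.5 per Mb, and chromosomes 12 and 13 reached 0.810 and 0.839 of theirs.

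Averaged over chromosomes, the log2 ratio of distal to remaining density was 0.26 ± 1.17 (SD, n = 19 chromosomes), a 1.20-fold difference. The exact two-sided sign-flip permutation test over the 19 chromosomes gave p = 0.346, adjusted over 15 results to 0.838. Leaving out chromosome 17 raised the mean to 0.42, and leaving out chromosome 18 to 0.41, and neither passed. Pooled over all chromosomes, the density was 31.4 per Mb near the distal ends and 20.5 per Mb elsewhere, a ratio of 1.53, which gives the peak-rich ends more weight. As a difference in place of a ratio, a scale chosen after the values were seen, the ends carried 10.7 ± 16.9 more summits per Mb (SD, n = 19 chromosomes; exact sign-flip permutation p = 0.0134, adjusted p = 0.147). With the window widened to 10 Mb the log2 ratio was 0.43 and passed (exact permutation p = 0.0136, adjusted p = 0.0291), and at 2.5 Mb it was 0.13 (exact permutation adjusted p = 0.91).

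**Figure D1:**
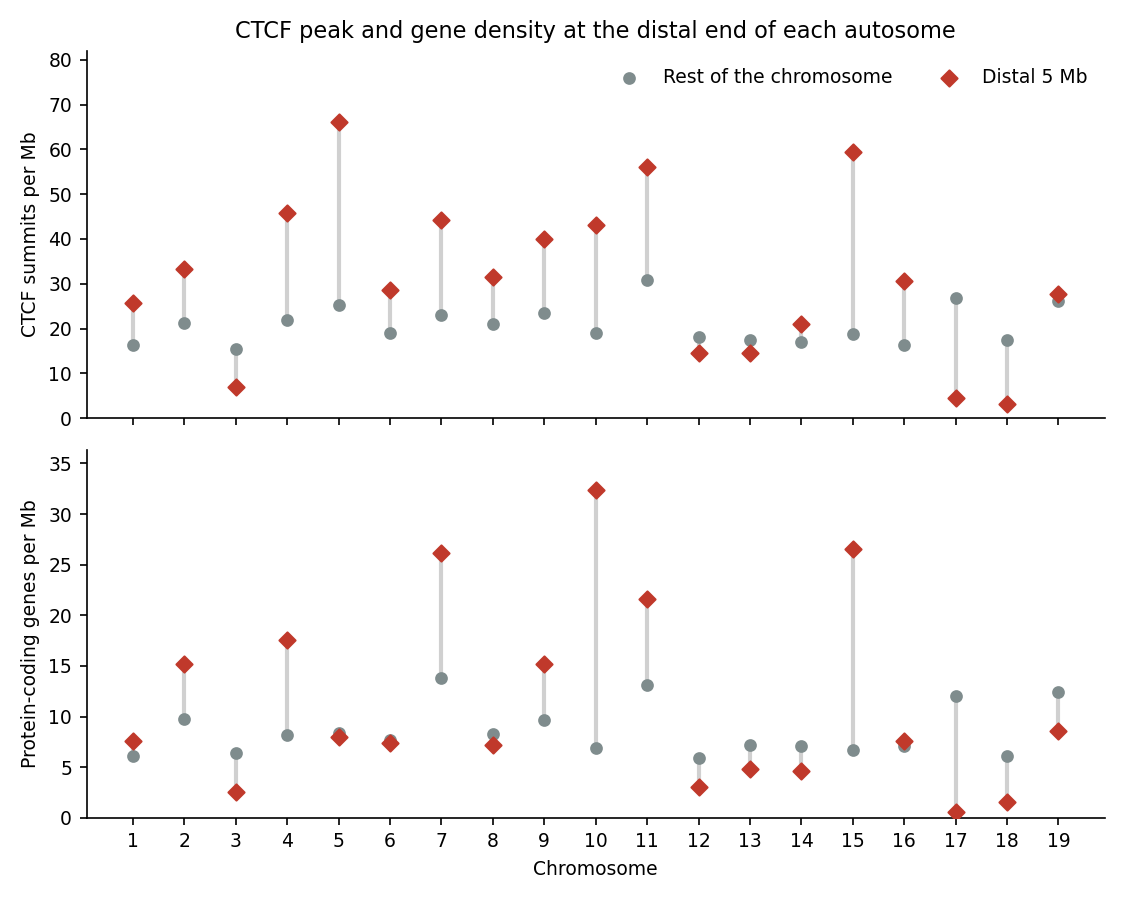
CTCF summits per Mb (top) and protein-coding genes per Mb (bottom) for each autosome, with diamonds for the distal 5 Mb and circles for the rest of the same chromosome, joined by a line. The diamond lies above the circle on 14 of 19 chromosomes for summits and on 9 of 19 for genes, and chromosome 5 stands out with 66.2 summits but 8 genes per Mb.

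Gene density also differed widely between the ends. The distal windows held 1092 protein-coding genes by their midpoints, from 0.600 per Mb on chromosome 17 to 32.4 per Mb on chromosome 10, with a median of 7.60. The rest of the chromosomes, each averaged over its length, had a median of 7.65 genes per Mb. Between windows of equal size, the median was 38 genes in the distal windows and 32 in the 452 others. The same windows had medians of 153 and 90 summits. Pooled over all chromosomes, there were 11.5 genes per Mb near the distal ends and 8.44 elsewhere. That is a ratio of 1.36, beside the pooled ratio of 1.53 for summits. By chromosome, the log2 ratio of gene density was −0.10 ± 1.46 (SD, n = 19 chromosomes), higher in 9 and lower in 10. It did not pass (exact sign-flip permutation p = 0.782, adjusted p = 0.838). This ratio also sets a single window against an average, so the same limit holds for it. On the log2 scale, windows poor in genes weigh more than they do in the pooled ratio. Chromosomes 3, 17 and 18, which had the fewest peaks near the end, also had few genes there: 13, 3 and 8 in 5 Mb. On chromosome 10, by contrast, 62 of the 162 genes in the window encode olfactory or vomeronasal receptors, of which 2 had a CTCF summit within 1 kb of an end.

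Across the 19 distal windows the number of summits followed the number of genes (Pearson's r = 0.732, Spearman's rho = 0.875, given as a description of windows that share 1 peak list). The other 452 windows of the same size gave values close by (r = 0.752, rho = 0.849). To take gene density into account, summits were set against genes over the 5 Mb windows of the rest of each chromosome, and the straight line through them was read at the gene count of the distal window. The distal windows held 6.07 ± 11.5 summits per Mb more than their own chromosome's line gave (SD, n = 19 chromosomes; higher in 13). The exact sign-flip permutation p was 0.0217 before and 0.220 after adjustment. Counted per protein-coding gene, there were 1.28 times as many summits near the distal end as elsewhere (mean log2 ratio 0.36 ± 0.67, SD, n = 19 chromosomes; higher in 15; exact permutation p = 0.0294, adjusted p = 0.220). That log2 ratio was 0.12 with a 2.5 Mb window (exact permutation p = 0.557) and 0.16 with all annotated genes as the denominator (exact permutation p = 0.204). The per-gene ratio also sets a single window against an average, and few genes in a window can raise it. Its mean for other 5 Mb windows was not tested and need not be 0 on the log2 scale. None of the 15 results passed after adjustment (0 of 15 by this test, with 2 at an unadjusted p under 0.05). Leaving out chromosome 10, both excesses passed, with an exact permutation adjusted p of 0.0466 each. The per-gene excess was smallest without chromosome 17, whose distal window held 3 genes. Its log2 ratio was then 0.28 (exact permutation p = 0.0586, exact permutation adjusted p = 0.220). With chromosome 5 left out, the per-gene log2 ratio was 0.30 (exact permutation p = 0.0579, exact permutation adjusted p = 0.434). At a window of 2.5 Mb the excess over the line was gone, with −0.062 summits per Mb (exact permutation p = 0.986). With a 10 Mb window both excesses passed, at 5.40 summits per Mb over the line (exact permutation adjusted p = 0.00706) and a log2 ratio of 0.35 per gene (exact permutation adjusted p = 0.00775).

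Chromosome 5 was the farthest from its line. Its last 5 Mb held 331 summits with 40 protein-coding genes, 66.2 per Mb where the line gave 24.4, with 8.28 summits per gene. It ranked second of all 471 windows, after one on chromosome 4 (chr4:131236384-136236383) with 355 summits and 105 genes. Among the 285 other windows with at most 40 genes, the most summits found were 276, also on chromosome 5 (chr5:126722856-131722855, 36 genes). High counts on this chromosome were thus not limited to its last 5 Mb. Without chromosome 5 the mean excess over the line was 4.08 per Mb and did not pass (exact permutation p = 0.0433, adjusted p = 0.434). Chromosome 10 lay farthest on the other side, with 43.0 summits per Mb where its line gave 54.2.

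**Figure D2:**
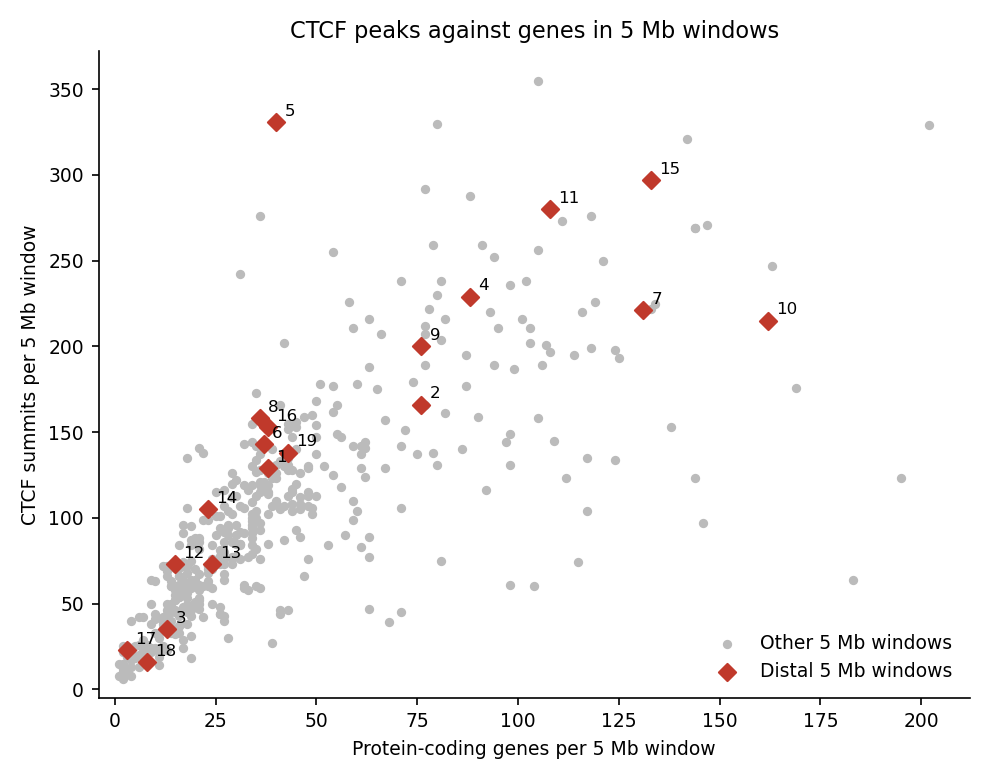
CTCF summits against protein-coding genes in consecutive 5 Mb windows counted back from the last peak of each autosome, with diamonds for the 19 distal windows, labelled by chromosome, and grey points for the 452 others. Most distal windows lie within the cloud of the other windows, and chromosome 5, with 331 summits and 40 genes, lies above it.

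Within its own chromosome the distal window was the richest in summits on chromosomes 5, 15 and 16, and among the 3 richest on 8 of 19 chromosomes. On chromosome 5 it held 331 summits against 330 in the next richest window. It was the poorest on chromosome 17 (18th of 18 windows). Set against the other 452 windows, 7 of the 19 distal windows held more than 199.9 summits, the bound of their top decile, and 2 held fewer than 28.1, the bound of their bottom decile. Neighbouring summits were closest on chromosome 15, with a median distance of 8.52 kb in the window against 17.7 kb in the rest, and farthest on chromosome 18, with 147 kb against 24.0 kb. Over the 19 chromosomes the median spacing was lower near the end on 13 (mean log2 ratio 0.10 ± 1.10, SD, n = 19 chromosomes; exact sign-flip permutation p = 0.697, adjusted p = 0.838).

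The summits were not densest at the very end. The last Mb held 25.8 ± 18.7 summits per chromosome (SD, n = 19 chromosomes), although it was the richest in genes of the 5 with 13.9 ± 13.5, the 14 genes beyond the last peak not counted. The next 4 single Mb held 30.4, 32.4, 35.6 and 32.9 summits per chromosome, with 12.8, 10.9, 9.42 and 10.5 genes. The last Mb had 1.86 summits per gene, the lowest value of any Mb up to 20 Mb from the end, and the fourth Mb had 3.78. The highest values of those 20 Mb lay outside the window. They were 36.6 summits per chromosome at 14 to 15 Mb and 4.76 summits per gene at 10 to 11 Mb. Its density was lower than the mean of the 4 Mb before it on 13 of 19 chromosomes, with the lowest ratios on chromosome 14 (4 summits against 25.2 per Mb) and chromosome 10 (11 against 51.0 per Mb). Chromosome 13 went the other way, with 47 summits in its last Mb against 6.50 per Mb before it. This division of the window was chosen after the profile was seen and carries no test. Just inside the 5 Mb limit lay 626 summits (4 to 5 Mb; median fold 6.88) and just outside it 566 (5 to 6 Mb; median fold 7.26).

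Peaks of the last Mb were also narrower and weaker. Their median width was 484 bp against 618 bp in the 4 Mb before it, lower on 15 of 19 chromosomes. Their median fold was 6.42 against 7.02, lower on 13, and their median −log10 q was 24.2 against 35.7, lower on 16. Summits of the last Mb also lay more often at gene ends, 20.4% of them against 16.1% in the 4 Mb before, and the median fold of gene-end peaks is lower than that of other peaks in the list. The part of gene ends in these values was not tested.

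**Figure D3:**
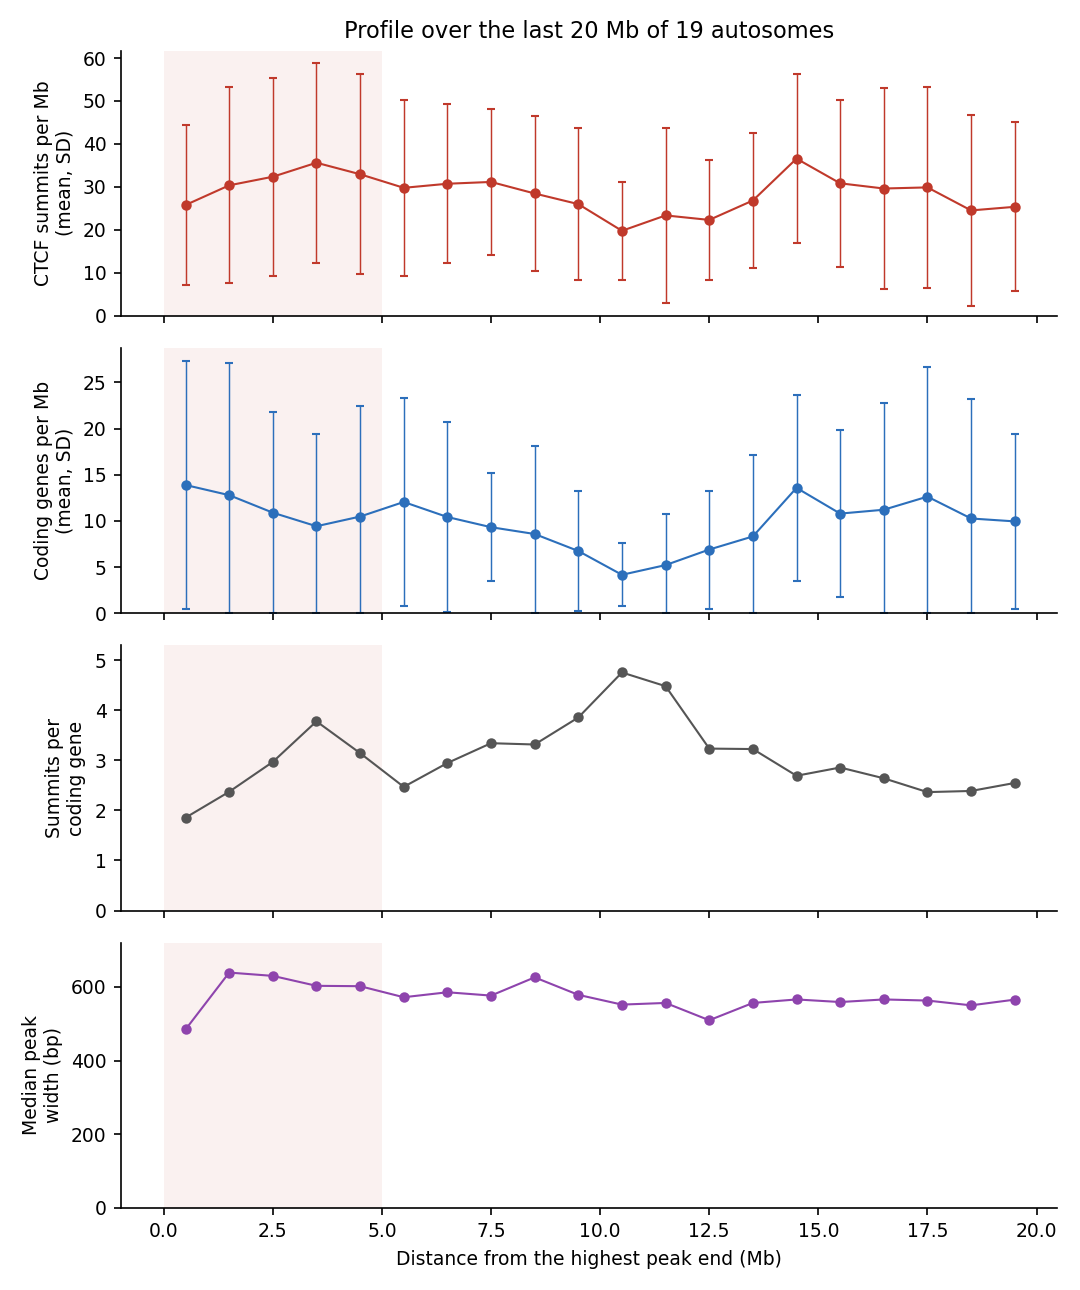
From top to bottom, CTCF summits per Mb, protein-coding genes per Mb (each the mean over 19 autosomes with SD, bars stopping at 0), summits per gene pooled over chromosomes, and the median width of all peaks, for each Mb from the last peak end. The shaded first 5 Mb hold the peaks described here, and their outermost Mb has 1.86 summits per gene and a median width of 484 bp.

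The last peak of each chromosome was weak in most cases. Its fold ran from 1.61 on chromosome 18 to 9.61 on chromosome 3 with a median of 5.12, and it was below the median of all distal peaks in 16 of 19. The 3 of highest fold were those of chromosome 3 (9.61, 99.4 kb from Rpe65, a retinal isomerase gene), chromosome 16 (8.64, 25.1 kb from B230307C23Rik) and chromosome 5 (7.28, 71.4 kb from Rfc3, a subunit of the clamp loader of DNA replication). The last peaks of chromosomes 2 and 17, singled out after their values were seen, had summits within 1 kb of a gene end. They lay 0.069 kb from an end of Polr3k, which encodes a subunit of RNA polymerase III (fold 4.53), and 0.151 kb from an end of the methyltransferase gene Mettl4 (fold 3.87). Over all chromosomes, 14 protein-coding genes had their midpoint beyond the last peak.

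The enrichment of distal peaks differed from that of other peaks by less than the spread between chromosomes. Their fold ran from 1.61 to 20.8, with quartiles of 4.85 and 9.44. By chromosome, the median fold in the distal window ran from 5.21 on chromosome 3 to 7.52 on chromosome 5, with a median of 6.83, against 6.61 to 7.04 in the rest. Only chromosomes 3 and 17 lay under 6, with 5.21 and 5.81, and both hold few peaks there (35 and 23). The log2 ratio was −0.019 ± 0.12 (SD, n = 19 chromosomes; exact sign-flip permutation p = 0.539, adjusted p = 0.838). Among peaks over 1 kb from any gene end it was −0.013 ± 0.14 (SD, n = 19 chromosomes; exact permutation p = 0.770, adjusted p = 0.838). Of the distal peaks, 635 (21.3%) had a fold of 10 or more, against 19.6% of all autosomal peaks. The median −log10 q had a log2 ratio of −0.034 ± 0.44 (SD, n = 19 chromosomes; exact permutation p = 0.741, adjusted p = 0.838), from 13.3 on chromosome 3 to 45.5 on chromosome 5.

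Width behaved like fold on average and varied more between ends. The median width in the distal window ran from 299 bp on chromosome 17 to 720 bp on chromosome 5, with a median of 561 bp. In the rest of the chromosomes it ran from 476 to 571 bp. Distal peaks were widest on chromosomes 5, 4 and 9 (720, 711 and 711 bp against 552, 515 and 527 bp), and narrowest on chromosomes 17 and 3 (299 and 381 bp against 546 and 516 bp). The mean log2 ratio was 0.025 ± 0.31 (SD, n = 19 chromosomes; higher in 12; exact sign-flip permutation p = 0.739, adjusted p = 0.838). At equal fold it was 0.022 ± 0.19 (SD, n = 19 chromosomes; higher in 14; exact permutation p = 0.629, adjusted p = 0.838). With a 10 Mb window the width difference passed, at 0.12 (exact permutation p = 0.00251, adjusted p = 0.00775). In that wider window the log2 ratio of fold was 0.032 and passed too (exact permutation adjusted p = 0.0415).

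Ends rich in peaks had wide peaks. Over the 19 distal windows, median width and summit count went together with r = 0.805 and rho = 0.870, and median −log10 q and summit count with r = 0.772 and rho = 0.787. For median fold and summit count the distal windows gave r = 0.553 and rho = 0.510. The other 452 windows gave lower values, r = 0.561 for width, 0.380 for −log10 q and 0.0727 for fold. Whether that relation differs between the kinds of window was not tested. These values describe windows of 1 list.

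**Figure D4:**
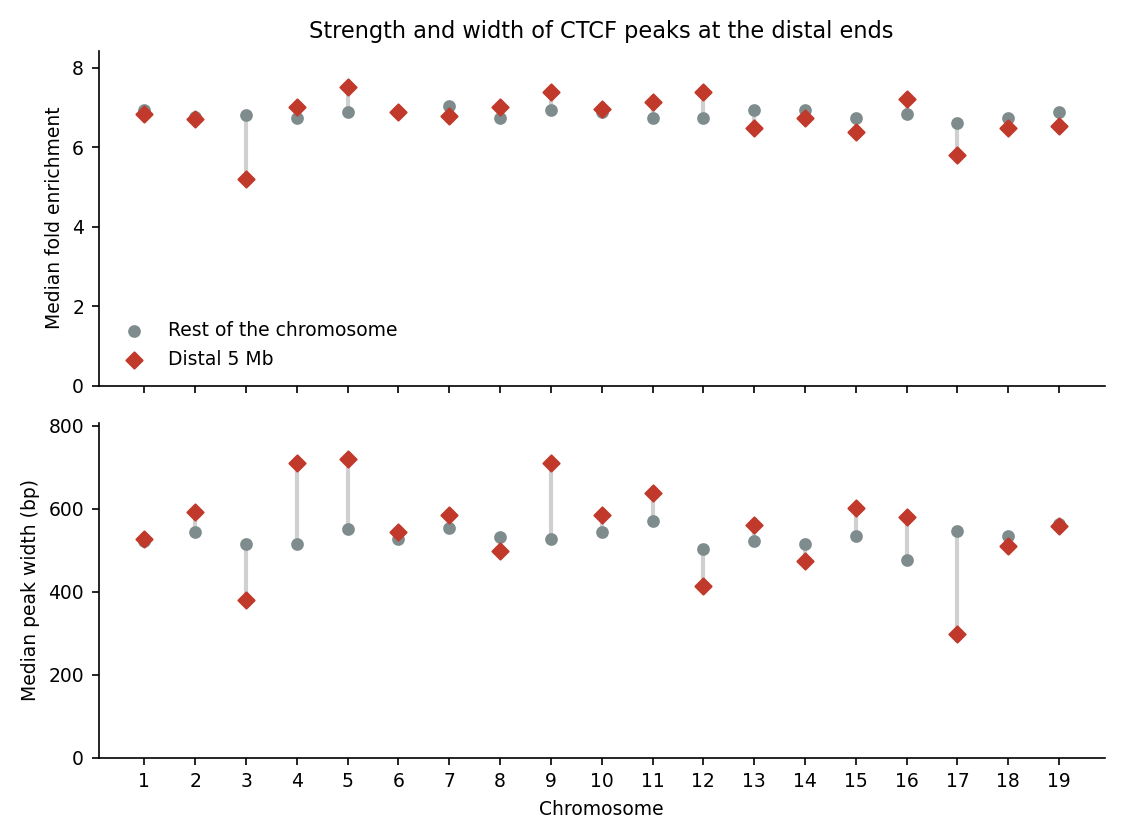
Median fold enrichment (top) and median peak width in bp (bottom) for each autosome, with diamonds for the distal 5 Mb and circles for the rest of the chromosome. The median fold lies between 5.21 on chromosome 3 and 7.52 on chromosome 5, and width reaches 720 bp on chromosome 5 and 299 bp on chromosome 17.

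Summit density at the other end of the same chromosomes was lower on most of them, but the difference did not pass at 5 Mb. The first 5 Mb beside the centromere had a median of 14.4 summits per Mb over the 19 chromosomes, against the distal median of 30.6. It ran from 3.80 on chromosome 3 to 63.4 on chromosome 19, where those 5 Mb held 1.4 and 36.6 protein-coding genes per Mb. Gene density was not tested between the proximal and distal ends. At 5 Mb, genes per Mb were fewer at the distal end on chromosomes 8, 12, 14, 16, 17, 18 and 19, and more on the others. Chromosomes 12, 17, 18 and 19 were also those with fewer summits per Mb at the distal end. Summit density was higher at the distal end on 15 of 19 chromosomes (mean log2 ratio 0.69 ± 1.45, SD, n = 19 chromosomes), which did not pass (exact sign-flip permutation p = 0.0559, adjusted p = 0.280). With 10 Mb at each end it was higher on 16 of 19, by 0.88 on the log2 scale, and passed (exact permutation adjusted p = 0.00706). Median fold differed by less than the spread between chromosomes (log2 ratio −0.000065 ± 0.18, SD, n = 19; exact permutation p = 0.999), as did width (0.13 ± 0.40, SD, n = 19; exact permutation p = 0.160, adjusted p = 0.601). With 10 Mb at each end, peaks were wider at the distal end on 16 of 19, by 0.21 on the log2 scale, and this passed (exact permutation adjusted p = 0.00366).

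Of the 10 distal peaks of highest fold, 4 lay on chromosome 15 and 3 on chromosome 2. The strongest, with a fold of 20.8, was inside Cdh4, a cadherin gene (chr2:179448794-179449612), and another inside the same gene had 19.2 (chr2:179872704-179874006). The next, with 20.6, was inside Espn, which encodes the actin bundler espin (chr4:152134224-152135217). Those of chromosome 15 lay 8.48 kb from Fmnl3, a formin gene (fold 20.2), 8.10 kb from Grasp, a scaffold protein gene (19.9), inside the activin receptor gene Acvr1b (19.4) and inside the retinoic acid receptor gene Rarg (19.2). The others lay 18.1 kb from Slc38a10, an amino acid transporter gene (19.6, chromosome 11), 47.6 kb from Slco4a1, an organic anion transporter gene (19.5, chromosome 2), and 63.2 kb from Bace2, a protease gene (19.3, chromosome 16). None of the 10 had its summit within 1 kb of a protein-coding gene end, where 16.8% of all distal summits lay.

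The widest distal peaks were not those of highest fold. The widest spanned 3354 bp beside Espn (chr4:152151998-152155351), with a fold of 8.53. The others spanned 3307 bp inside the septin gene Septin9 (fold 5.93), 3294 bp near the tubulin gene Tuba1c (fold 13.2), 3067 bp near Katnal1 (fold 5.01), a relative of the microtubule-severing katanin, and 3049 bp inside the glucosyltransferase gene B3glct (fold 8.21). Both of the last lie in the peak-rich end of chromosome 5.

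Of the 95 single Mb in the distal windows, the 3 with the most summits lay on chromosomes 5 and 10. The richest (chr5:147722856-148722855) held 91 summits and 5 protein-coding genes, each with a summit within 1 kb of an end. Their gene-end folds were 8.01 at the transporter gene Slc46a3, 6.22 at Ubl3, 4.78 at Mtus2, 4.60 at the proteasome assembly gene Pomp and 3.87 at the arginine transporter gene Slc7a1. The second (chr10:127536397-128536396) held 80 summits and 42 genes, 22 of them with a gene-end summit. There the highest gene-end folds were 13.6 at Timeless, which acts at replication forks, 12.9 at Pan2, a deadenylase gene, and 11.6 at Esyt1. Baz2a and the ATP synthase gene Atp5b both had 10.6. Their facing ends lie at 128091370 and 128090388, so 1 summit may count for both. The third (chr5:149722856-150722855) held 76 summits and 7 genes, of which Gm40353, N4bp2l2 and Brca2 had gene-end folds of 11.8, 10.4 and 2.58.

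Relative to genes, distal summits fell much as elsewhere. At gene ends, meaning 1 kb or less from either end of a protein-coding gene, there were 502 (16.8%, and 16.4% of the other peaks). Elsewhere within gene bodies there were 1283 (43.0%, and 42.4% of the other peaks), and 1200 (40.2%, and 41.2%) were intergenic. The median fold was 5.69 at gene ends, 7.25 inside and 7.08 outside. By chromosome the gene-end share was 1.85 ± 7.04 percentage points lower in the distal window (mean over chromosomes −1.85; SD, n = 19; exact sign-flip permutation p = 0.264, adjusted p = 0.793). Counting genes beyond the last peak as distal, 490 of 1106 distal protein-coding genes had a gene-end summit (44.3%, exact Clopper-Pearson 95% interval 41.3 to 47.3), against 40.3% of all 20560 autosomal ones. That interval treats genes as independent, which neighbours are not. Compared chromosome by chromosome, the share of such genes was 2.34 ± 15.1 points higher in the window (SD, n = 19; higher in 13; exact permutation p = 0.505, adjusted p = 0.838).

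Of 127 matched autosomal genes of meiosis or of testis cell types in 8 lists, 7 lay in the distal windows, which hold 5.32% of all autosomal protein-coding genes. Of the 7, 4 had a gene-end summit, as did 47 of the 120 listed genes elsewhere and 40.3% of all autosomal protein-coding genes. From the axis and cohesin list, Sycp2, a component of the lateral element of the synaptonemal complex, had a fold of 6.19 at 36 bp from an end, and Pds5b, a regulator of cohesin, had 3.93 at 31 bp. Syce1, of the central element, had no gene-end summit, and the closest one, of fold 12.4, was 18.1 kb away. The recombination gene Brca2 had the fold of 2.58 given above. Among genes of telomeres and their attachment, Rtel1, a helicase gene, lay 0.533 Mb from the end of chromosome 2 with a fold of 5.87 at 77 bp. Cdk2, whose kinase sits at meiotic telomeres, had a summit of fold 13.9 at 1.49 kb. Gfra1, a receptor gene of spermatogonial stem cells, had one of fold 2.93 at 1.45 kb. The lists of spermatid, Sertoli, Leydig, and peritubular and immune cell genes had no member in the windows.

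Some well-known loci, chosen with earlier results of these data known, cross the distal windows. On chromosome 7, 4 summits lay from H19 to Igf2 (highest fold 13.4) and 7 in Kcnq1 (highest fold 11.5). On chromosome 15, 10 lay from Hoxc4 to Hoxc13 (86.4 per Mb, highest fold 7.85). Most of these were weak, with a median fold of 3.70 against 6.94 for all distal peaks. The type II keratin genes on the same chromosome, which encode filament proteins of epithelia and hair, spanned 684 kb (chr15:101348315-102032026) with 21 summits, or 30.7 per Mb, and 3 of the 24 protein-coding genes there had a gene-end summit, against 40.3% of all autosomal ones.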

How the data were processed

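CTCF ChIP-seq of whole testis was deposited as 1 merged peak list. BWA 0.7.12, MACS2 2.2.7 and mm10 are named, with no role or order, per the submitters' processing notes. Since bio2 and merged both occur in the names of the peaks, which IP samples entered is not known. Values deposited by the authors are, per peak, a ratio (fold enrichment), −log10 q, −log10 p and a whole-number score (the last 2 not used here) and positions in bp, a unit listed as other. The lowest deposited −log10 q was 1.308. Fold and −log10 q were used only to describe and compare peaks within this list.

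Members were found by summit position, with Python 3.11.15, pandas 2.3.3, numpy 2.4.6 and scipy 1.17.1. The rest of a chromosome ran from its first peak or 3 Mb, whichever was higher, to the window. Genes came from RefSeq GRCm38.p6: 20560 autosomal protein-coding genes, without those starting below 3 Mb, placed by midpoint. A gene end is within 1 kb of either annotated end. Each result is 1 value per chromosome, tested by the exact two-sided sign-flip permutation test (smallest p 3.815e-06) with Benjamini-Hochberg adjustment over 15 results. Chromosomes of 1 list are not biological replicates: p-values measure only the spread between chromosomes. The density, fold and width statistics were run on simulated peaks at uniform random positions, which lack the clustering of real peaks. The other statistics were not run on simulated data.

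Named peaks were the 10 of highest fold, the 5 widest, the 3 last peaks of highest fold and the 3 single Mb with the most summits, with up to 5 genes by gene-end fold. Of the 138 list names, 127 matched different autosomal protein-coding genes, and the aliases, 7 other genes and 2 unmatched names were left out. The members, lists and rules were chosen with earlier results of these data known. Promoter sequences are from RefSeq, and no peak sequence was used. Alternatives were other windows, thresholds, gene sets, ends, and leaving out each chromosome.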

Additional observations from a re-analysis of the deposited data

How the results depend on the processing

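No paired analysis was possible because no sample has values of its own in the 1 deposited list. The 15 results were recomputed under those of 14 settings that bear on them, 121 values in all, and with each chromosome left out, 285 values; 91 and 263 kept their direction and their side of the threshold, and none lost a call, since none was made. Values are mean log2 ratios unless stated, tested by the exact sign-flip permutation test, and the cause of a change was not tested.

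Widening the window to 10 Mb brought 7 results past the threshold: peak density 0.4349, peaks per gene 0.3518, summits per Mb over the gene line 5.403, width 0.1201, width given fold 0.06302, and against the proximal end density 0.8801 and width 0.2118. It turned gene density (0.08308), fold (0.03158), fold away from gene ends (0.03323), −log10 q (0.149), spacing (−0.1418) and fold against the proximal end (0.02983), of which fold and −log10 q passed. At 2.5 Mb, gene density (0.006348), summits over the gene line (−0.0622 per Mb), width (−0.004991) and the share of genes with a gene-end summit (−2.412 points) turned. With peaks of fold 5 or more, width (−0.03318), fold (0.007578), fold away from gene ends (0.009792) and fold against the proximal end (0.009732) did. Restricted to peaks whose −log10 q reached the median, fold (0.0182), fold away from gene ends (0.01636), −log10 q (0.02458), the share of genes with a gene-end summit (−1.776 points) and fold against the proximal end (0.01577) did. Fold against the proximal end also turned without the last peak (0.008023) and, an alternative chosen after seeing the data, with the end set at the last gene or peak (0.0008868). Gene density turned with all annotated genes (0.1029) and, also chosen after seeing the data, as a difference per Mb (2.924).

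Leaving out chromosomes gave these ranges: peak density 0.1823 to 0.4157, width 0.0009459 to 0.07506, gene density −0.2311 to 0.1338, peaks per gene 0.2819 to 0.4399, summits over the gene line 4.082 to 7.026 per Mb, fold −0.02766 to 0.001226, fold away from gene ends −0.02064 to 0.01324, −log10 q −0.06636 to 0.02654, spacing −0.04308 to 0.1666, and fold against the proximal end −0.02516 to 0.01759. Leaving out chromosome 10 took peaks per gene and summits over the gene line past the threshold. Without receptor genes, chosen after seeing the data, peaks per gene was 0.32. The alternative with the build's chromosome lengths was not run. Without depth or values per sample, counting error and the spread between animals are unknown.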
